A study of Mus musculus with 2 samples.

Results

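The constitutive proteasome subunit genes were compared between the thymus of mice with a Pla2g10 transgene and the thymus of littermate controls. Members were the genes whose array name is Psma, Psmb, Psmc, Psmd, Psme or Psmf followed by a digit, without the inducible and thymus-specific catalytic subunits Psmb8, Psmb9, Psmb10 and Psmb11. This gave 41 of the 27573 genes on the array, through 64 probes. The transgenic animals were Pla2g10-Tg/+ and the controls were littermates without the transgene. Both were 6 months old, on a C57BL/6 background and fed the diet labelled LFD (CE2), and the labels give neither the sex nor the promoter that drives the transgene. RNA of 4 mice was pooled per genotype, and both pools were hybridised together on 2 Agilent arrays with exchanged dyes. The transgenic pool carried Cy5 on array 1 and Cy3 on array 2, and the control pool carried Cy3 on array 1 and Cy5 on array 2.

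The proteasome is the protease that destroys ubiquitin-tagged proteins. Its barrel-shaped core particle is built from rings of alpha subunits (Psma genes), which form the gate, and rings of beta subunits (Psmb genes), which hold the cutting sites. A regulatory particle caps the barrel: its base contains a ring of ATPases (Psmc genes) that unfold the substrate, and its lid (several Psmd genes) removes the ubiquitin chain. In the thymus the core also makes the peptides shown on MHC class I molecules to developing T cells, and cells that meet interferon, as well as thymic cortical epithelium, exchange the catalytic beta subunits for specialised ones.

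A log2 ratio below is transgenic over control, averaged over the arrays, and ± gives the SD of the 2 array values. Levels are normalised intensities after background correction, with 50 units added to each channel, and levels of different probes are not compared. The labels do not say whether the arrays hold separate pools. Both were counted as 1 sample per genotype with exchanged dyes, so the SD is technical and no difference was tested across animals. In pooled tissue RNA, fewer cells of a type and less RNA per cell cannot be told apart. The share of spots well above background was 34.1% (array 1) and 28.5% (array 2) in the transgenic channels, and 29% and 33.2% in the control channels. Over 20 immature thymocyte markers, 19 were measured, with a median of -0.27. Of these 19, 15 were lower on both arrays (78.9%, against 29.1% of all measured genes). The summed level of the 19 was 33260 and 29730 in the transgenic channels of arrays 1 and 2, against 41260 and 36660 in the control channels. White adipocyte markers (7 of 12 measured) had a median of 0.44, with a summed level of 2073 and 1811 in the transgenic channels and 1276 and 1142 in the control channels. Erythroid markers (4 of 7 measured) had a median of 0.58, with sums of 5496 and 5481 in the transgenic channels and 2963 and 2388 in the control channels. Medullary epithelium markers (6 of 8 measured) had a median of 0.31. Of these 6, 5 were above 0 on both arrays (83.3%, against 28.3% of all measured genes). Sums over the 6 were 1219 and 1085 in the transgenic channels and 807.4 and 804.8 in the control channels. Cortical epithelium markers (7 of 9 measured, Psmb11 among them) had a median of 0.15, with array medians of 0.029 and 0.18. On both arrays 3 were above 0 (42.9%) and 1 below 0 (14.3%), against 28.3% and 29.1% of all measured genes. Sums over the 7 were 20140 and 17930 in the transgenic channels and 19420 and 15490 in the control channels. The part of these differences in the values of the proteasome genes was not tested. The Pla2g10 probe had raw signals of 35.25 and 42.96 in the transgenic channels and 45.07 and 39.52 in the control channels, and in 0 of 4 channels was it well above background. The transgene therefore gave no check of the labels.

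The proteasome genes were almost completely detected and differed little between the genotypes. Of the 41 members, 40 were well above background in all 4 channels (97.6%), against 8733 of 27573 genes on the array (31.7%). The exception was Psma8, the testis paralogue of an alpha subunit, whose probe passed this limit in 0 of 4 channels, with raw signals of 42.13 and 43.69 in the transgenic channels and 47.03 and 42.69 in the control channels. The 40 measured genes ran from -0.20 to 0.20, which is 0.872 to 1.15 times the control level. Their median was 0.0024, against -0.0023 over all 9397 measured genes. The quartiles were -0.062 and 0.067 for the members, and -0.080 and 0.079 for all measured genes. The 5th and 95th percentiles were -0.16 and 0.13 for the members, and -0.21 and 0.22 for all measured genes. A change of at least 1.2-fold with the same sign on both arrays was found in 0 members as higher and 0 as lower. The same rule gave 3.13% of all measured genes as higher and 2.45% as lower, 5.58% in either direction.

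**Figure D1:**
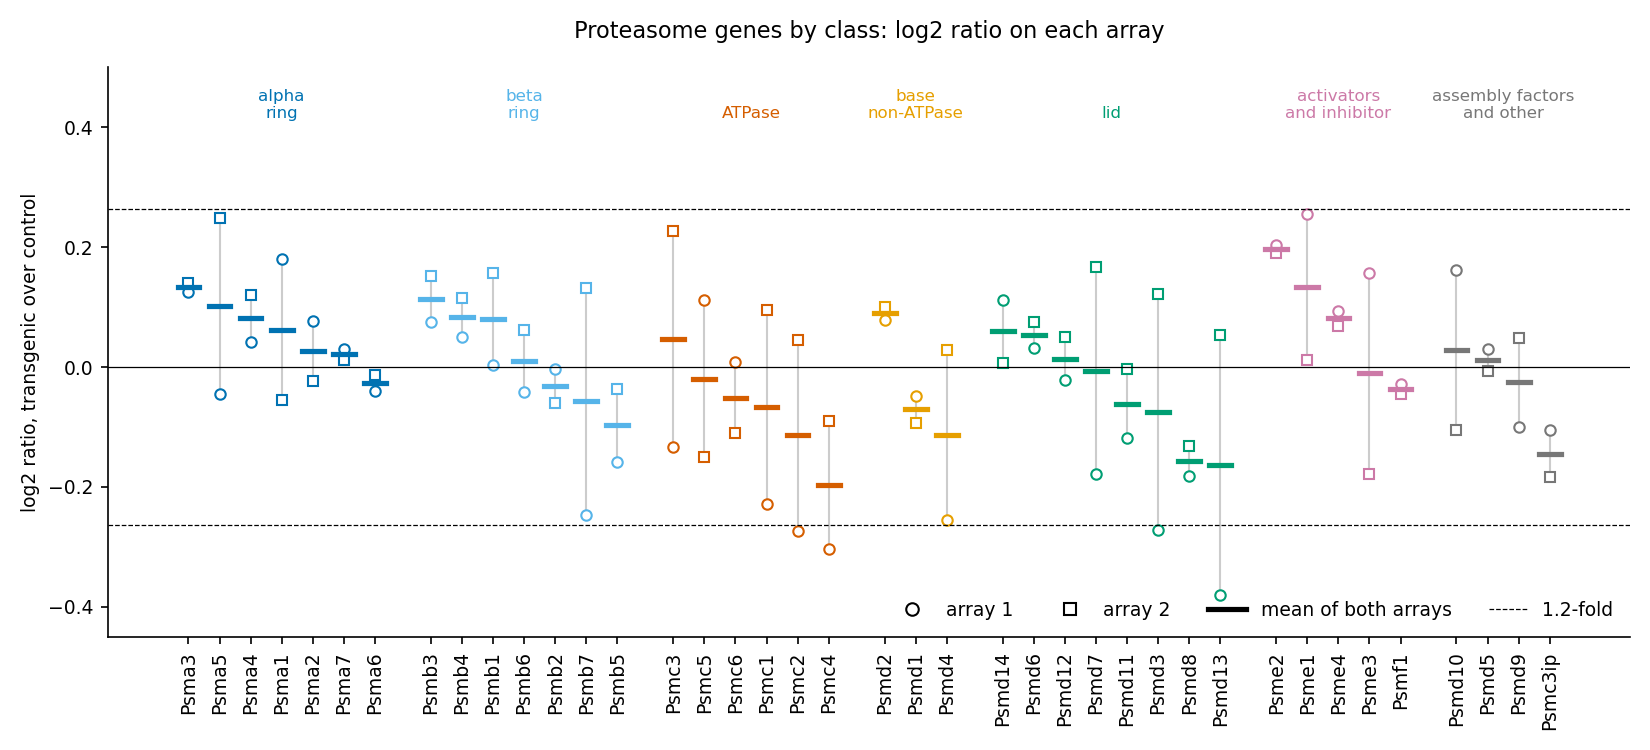
Each of the 40 measured proteasome genes is plotted with its log2 ratio of transgenic over control on array 1 (circles) and array 2 (squares), and the bar marks their mean; genes are grouped by class and dashed lines mark 1.2-fold. All bars lie between -0.20 and 0.20, inside the dashed lines, while single arrays reach -0.38.

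Sign was no more repeatable among the proteasome genes than among the rest. On both arrays 12 members were above 0 (30%) and 9 below 0 (22.5%), against 28.3% and 29.1% of all measured genes. The other 19 changed sign between the arrays (47.5%), against 42.6% of all measured genes. After normalisation, 12 of these 19 were brighter in the Cy3 channel on both arrays and 7 in the Cy5 channel, whichever genotype that channel held. The mean exceeded the SD between arrays in 16 of 40 members (40%) and in 47% of all measured genes.

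**Figure D2:**
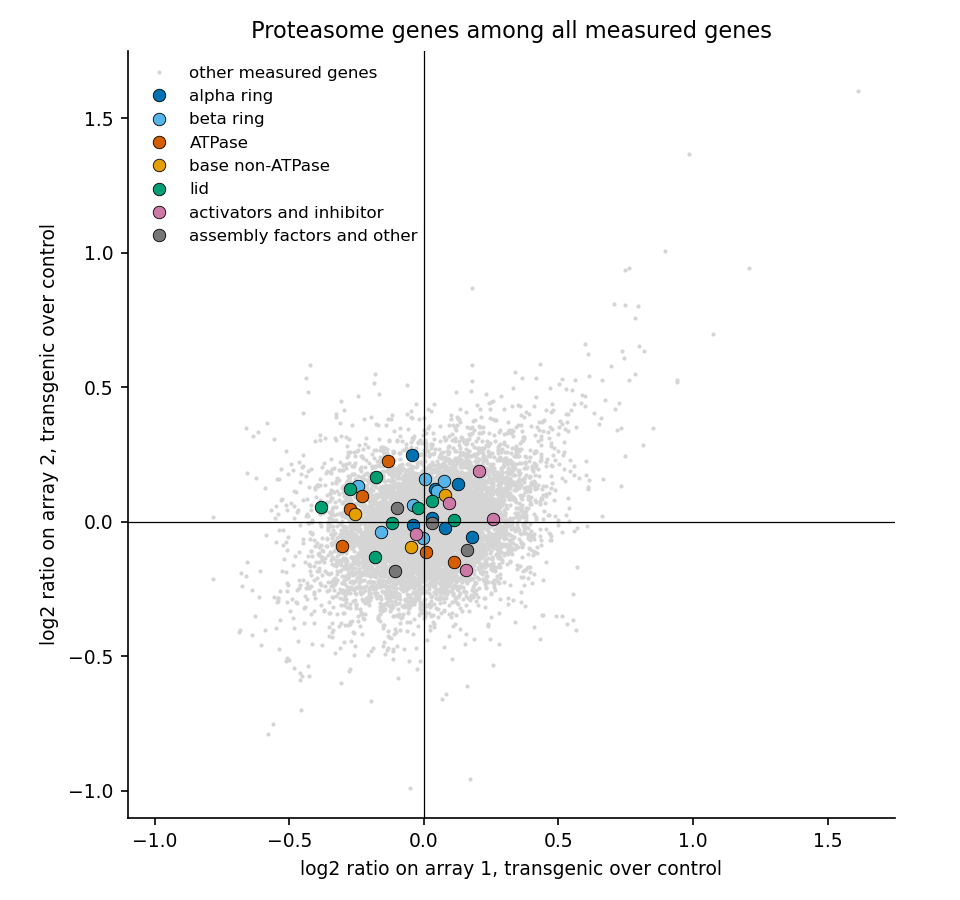
Log2 ratio of transgenic over control on array 1 (x axis) against array 2 (y axis) for the proteasome genes, coloured by class, and for the other measured genes in grey. The 40 proteasome genes form a cluster around 0 that reaches from -0.38 to 0.26 on array 1 and from -0.18 to 0.25 on array 2.

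Promoter windows of the proteasome genes were searched for the antioxidant response element, because that element is bound by NFE2L1 and NFE2L2, transcription factors known to raise proteasome gene expression. Windows run from 250 bases before to 50 after the gene start (RefSeq, GRCm38.p6) and were found for 34 of the 41 members, 37 windows in all. Psma8, Psmb1, Psmb2, Psmb7, Psmc3, Psmd3 and Psmd7 had no window and were not searched. The motif TGACNNNGC was looked for on both strands, and 6 windows held it (16.2%), against 12.4% of 32851 windows of all genes. The CCAAT box (CCAAT, both strands, counted whether or not it overlaps the first motif) was in 35.1% of the proteasome windows and 37.4% of all windows. These shares describe letters in a window and say nothing on binding. The windows of the catalytic subunit genes Psmb5 and Psmb6 are shown whole, as these genes carry active sites, and the other 4 are shown around the match. Capitals mark the match, and each sequence reads 5′ to 3′ on the strand of its gene.
Psmb5 (chr14:54617946-54618245, minus strand): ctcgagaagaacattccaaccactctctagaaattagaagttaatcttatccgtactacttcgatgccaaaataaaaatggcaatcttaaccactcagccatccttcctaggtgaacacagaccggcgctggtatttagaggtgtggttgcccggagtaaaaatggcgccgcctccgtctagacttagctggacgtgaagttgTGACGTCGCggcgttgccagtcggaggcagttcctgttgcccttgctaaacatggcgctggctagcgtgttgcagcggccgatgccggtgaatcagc
Psmb6 (chr11:70525107-70525406, plus strand): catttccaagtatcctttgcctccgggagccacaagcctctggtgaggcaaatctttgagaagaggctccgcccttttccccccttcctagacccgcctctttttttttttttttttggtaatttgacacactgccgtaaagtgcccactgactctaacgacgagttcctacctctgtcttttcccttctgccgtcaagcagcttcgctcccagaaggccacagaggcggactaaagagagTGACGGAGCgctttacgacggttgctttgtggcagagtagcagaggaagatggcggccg
Psmc6 (chr14:45329574-45329635, plus strand): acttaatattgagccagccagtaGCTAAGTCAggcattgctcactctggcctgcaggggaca
Psmd9 (chr5:123228129-123228197, plus strand): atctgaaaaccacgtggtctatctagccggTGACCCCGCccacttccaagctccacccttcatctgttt
Psmd12 (chr11:107479278-107479319, plus strand): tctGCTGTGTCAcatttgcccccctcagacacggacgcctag
Psme4 (chr11:30771738-30771806, plus strand): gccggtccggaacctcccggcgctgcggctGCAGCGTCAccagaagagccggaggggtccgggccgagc

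The 6 genes with a motif match were at -0.10 (Psmb5), 0.010 (Psmb6), -0.051 (Psmc6), -0.025 (Psmd9), 0.014 (Psmd12) and 0.081 (Psme4). They lay on both sides of 0. Of the factors themselves, Nfe2l1 lay near 0 and Nfe2l2 lay lower than any proteasome gene. Nfe2l1, which switches proteasome genes on when proteasome activity drops, had levels of 322.7 and 274.3 in the transgenic channels of arrays 1 and 2 and 304.8 and 263.1 in the control channels, a log2 ratio of 0.071 ± 0.016. Nfe2l2, the oxidative stress factor, had levels of 226.1 and 195.5 in the transgenic channels and 254.7 and 249.1 in the control channels, a log2 ratio of -0.26 ± 0.13. It was lower on both arrays and missed the 1.2-fold threshold, and its 3 measured probes ran from -0.26 to 0.12. Ddi2, the protease that releases NFE2L1, was at -0.14 ± 0.031 with its other probe at 0.063, and Ngly1, the glycanase that edits it, at 0.076 ± 0.16.

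The alpha ring median lay slightly above 0, at 0.062. Of 7 measured genes 6 were above 0, and 3 were above 0 on both arrays. Over all 9397 measured genes these counts were 4630 and 2660. The array medians of the alpha ring were 0.042 and 0.013. Psma3 was the highest, with levels of 346.8 and 306.2 in the transgenic channels of arrays 1 and 2 and 317.9 and 277.7 in the control channels. At these normalised levels both transgenic channels were brighter than the control channel of the same array, and the log2 ratio was 0.13 ± 0.011. Psma6 was the lowest of the ring, at 760.1 and 702.3 in the transgenic channels and 781.2 and 708.9 in the control channels. Its log2 ratio was -0.026 ± 0.018, with the same sign on both arrays. Psma4 (0.081) and Psma7 (0.021) were also above 0 on both arrays. Psma1 (0.062), Psma2 (0.027) and Psma5 (0.10) changed sign between them, and Psma5 had the widest spread of the ring, with -0.045 on array 1 and 0.25 on array 2.

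The beta ring genes were centred near 0: 4 of 7 were above 0, against 4630 of all 9397 measured genes. The median of the ring was 0.010, with array medians of -0.0033 and 0.12. Psmb3, a structural subunit without protease activity, was the highest. Its levels were 1882 and 1678 in the transgenic channels of arrays 1 and 2, against 1786 and 1511 in the control channels, a log2 ratio of 0.11 ± 0.054. A second Psmb3 probe also read 0.11. Psmb1 (0.080) and Psmb4 (0.083) were above 0 on both arrays, and Psmb2 (-0.031) was below 0 on both.

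The constitutive catalytic subunits come from Psmb5, Psmb6 and Psmb7, and 0 of them were above 0 on both arrays. The share among all measured genes was 28.3%, so a count of 0 in so few genes does not set them apart. Psmb5 encodes the subunit with chymotrypsin-like activity (transcript NM_011186, probe on mm8 chromosome 14, 53568529 to 53568588). It had 362.2 and 338.3 in the transgenic channels of arrays 1 and 2 and 404.1 and 347.0 in the control channels. It was lower on both arrays, at -0.16 and -0.037, with a mean of -0.10 ± 0.086. Psmb6 encodes the subunit with caspase-like activity (NM_008946, mm8 chromosome 11, 70343707 to 70343766). It had 927.8 and 883.3 in the transgenic channels and 954.8 and 846.0 in the control channels. The arrays disagreed in sign, and the log2 ratio was 0.010 ± 0.073. Psmb7 encodes the subunit with trypsin-like activity (NM_011187, mm8 chromosome 2, 38435455 to 38455874). It had 186.7 and 195.0 in the transgenic channels and 221.4 and 177.9 in the control channels. At these normalised levels the channel that held Cy3 was brighter on both arrays. The log2 ratio of Psmb7 was -0.25 on array 1 and 0.13 on array 2, with a mean of -0.057 ± 0.27.

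The specialised catalytic subunits did not move as a group either. Psmb8, which takes the place of Psmb5 under interferon, was at -0.10 ± 0.15, and Psmb11, which takes that place in thymic cortical epithelium, at -0.047 ± 0.16. Psmb9, the replacement for Psmb6, was at 0.11 ± 0.062, and Psmb10, the replacement for Psmb7, at 0.16 ± 0.059. Psmb9 and Psmb10 were above 0 on both arrays, as were 28.3% of all measured genes. Their constitutive counterparts changed sign, as did 42.6% of all measured genes, so these few genes do not set the specialised subunits apart. None of the 4 specialised genes reached 1.2-fold, against 5.58% of all measured genes.

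The ATPase genes had a lower median than the core genes, but the classes overlapped. Core genes ran from -0.097 to 0.13 and ATPase genes from -0.20 to 0.047. The ATPase median was -0.059, and was -0.18 on array 1 and -0.023 on array 2. Of the 6 ATPase genes, 5 were below 0, and 1 was below 0 on both arrays. The same counts over all 9397 measured genes were 4767 and 2731. Psmc4 was the lowest of all members (NM_011874, probe on mm8 chromosome 7, 27750873 to 27751114). It had 477.0 and 455.3 in the transgenic channels of arrays 1 and 2 and 588.8 and 484.8 in the control channels. It was lower on both arrays, at -0.30 and -0.091, with a mean of -0.20 ± 0.15, and its second probe read -0.24 ± 0.23. Psmc3 was the highest ATPase gene, with 193.4 and 181.7 in the transgenic channels and 212.1 and 155.2 in the control channels. Its sign differed between the arrays, and the log2 ratio was 0.047 ± 0.25. Psmc1 (-0.067), Psmc2 (-0.11), Psmc5 (-0.019) and Psmc6 (-0.051) also changed sign. The brightest Psmc6 probe was at -0.051 ± 0.084 and its other probe at 0.17 ± 0.14.

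Besides the ATPases, the base of the regulatory particle holds the scaffold subunits encoded by Psmd1 and Psmd2 and the ubiquitin receptor encoded by Psmd4. Psmd2 was the highest, with 577.8 and 526.7 in the transgenic channels of arrays 1 and 2 and 547.2 and 491.3 in the control channels, a log2 ratio of 0.089 ± 0.015. Its dimmer probe disagreed, at -0.19 ± 0.29. Psmd4 was the lowest, with 343.4 and 340.7 in the transgenic channels and 410.1 and 334.2 in the control channels. Only array 1 showed a difference, and the mean was -0.11 ± 0.20. Psmd1 was at -0.071 ± 0.033, below 0 on both arrays.

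The lid genes had a median of -0.033 with 5 of 8 below 0 (2 on both arrays), but the array medians differed in sign, at -0.15 and 0.052. Of all 9397 measured genes, 4767 were below 0 and 2731 were below 0 on both arrays. Psmd14, the deubiquitinase that cuts the ubiquitin chain from the substrate, was the highest of the lid. It had 550.4 and 451.8 in the transgenic channels of arrays 1 and 2 and 509.1 and 449.8 in the control channels, a log2 ratio of 0.059 ± 0.075. Psmd13, a structural lid subunit, was the lowest. It had 71.42 and 84.59 in the transgenic channels and 93.02 and 81.46 in the control channels. The fall was on array 1 only, at -0.38 against 0.054 on array 2, and the mean of -0.16 ± 0.31 had the largest spread of all members. Psmd8 was as low with far less spread, at -0.16 ± 0.036, and was below 0 on both arrays. Psmd11 (-0.061) was also below 0 on both arrays and Psmd6 (0.054) above 0 on both. Psmd3 (-0.076), Psmd7 (-0.0057, the partner of Psmd14) and Psmd12 (0.014) changed sign.

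Between the classes, the core genes had a higher median than the ATPase genes on both arrays. The differences below are between class medians, taken once over the genes' mean ratios and once on each array, and the first need not lie between the array values. Core minus ATPase was 0.10 over the mean ratios, 0.20 on array 1 and 0.11 on array 2. The core median was 0.044 over 14 measured genes, with 10 above 0 and 6 above 0 on both arrays. Over all 9397 measured genes these counts were 4630 and 2660. Core minus lid was 0.078 over the mean ratios, 0.16 on array 1 and 0.037 on array 2, so its sign held and its size did not. ATPase minus lid was -0.026 over the mean ratios, -0.033 on array 1 and -0.074 on array 2. Alpha ring minus beta ring was 0.052 over the mean ratios, 0.045 on array 1 and -0.10 on array 2, and so changed sign between the arrays. These differences are medians of few genes in 1 pair of pools, and they have no test across animals.

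**Figure D3:**
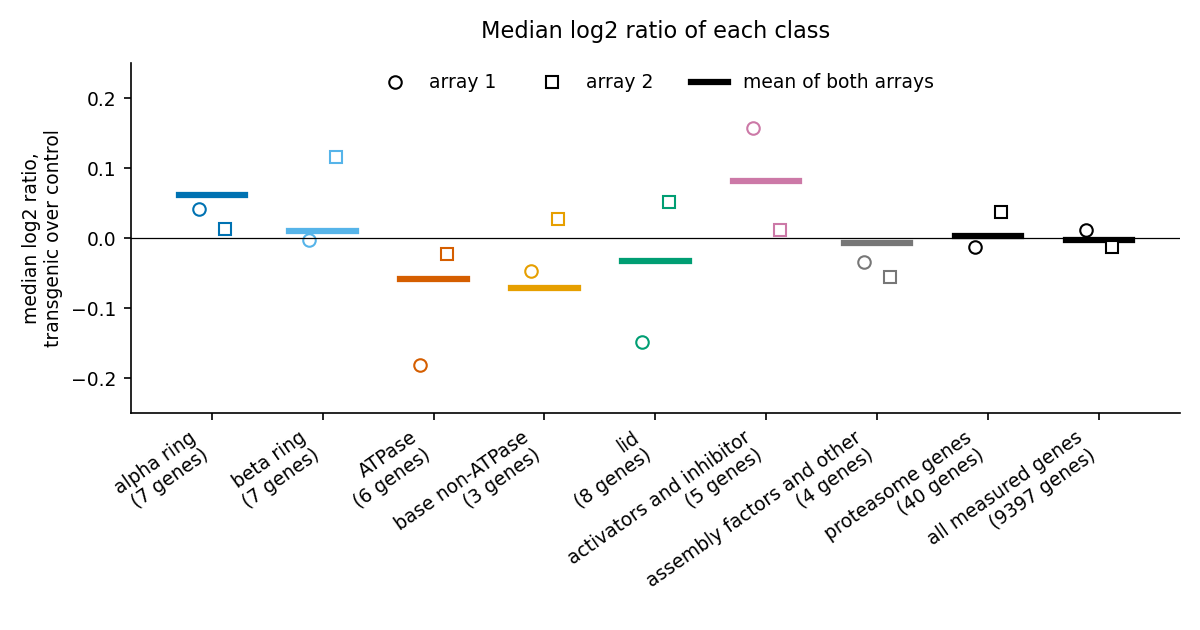
Median log2 ratio of transgenic over control for each class of proteasome genes, for all 40 measured proteasome genes and for all 9397 measured genes, on array 1 (circles), array 2 (squares) and in the mean of both arrays (bars). The ATPase and lid medians were -0.18 and -0.15 on array 1 and -0.023 and 0.052 on array 2. The beta ring and the activators and inhibitor also differed, at -0.0033 and 0.16 on array 1 and 0.12 and 0.012 on array 2. The loess centres all genes near 0 on each array.

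The activator genes held the highest member. Psme2 encodes the beta subunit of the interferon-inducible activator that opens the core without ATP (NM_011190, probe on mm8 chromosome 14, 54541569 to 54541628). It had 1552 and 1360 in the transgenic channels of arrays 1 and 2 and 1347 and 1193 in the control channels. The arrays were close, at 0.20 and 0.19, with a mean of 0.20 ± 0.010, and a second probe read 0.18 ± 0.035. A close copy, Psme2b, can share such probes. Psme1, which encodes the alpha subunit of the same activator, was above 0 on both arrays but uneven, at 0.26 and 0.012, with a mean of 0.13 ± 0.17. Psme4, the gene of a large single-chain activator, was at 0.081 ± 0.018, with its dimmer probe at -0.039. Psme3, the gene of a nuclear activator, was at -0.010 ± 0.24. Psmf1 encodes a protein first described as a proteasome inhibitor and was the lowest of this class. It had 84.51 and 80.81 in the transgenic channels and 86.22 and 83.41 in the control channels, a log2 ratio of -0.037 ± 0.012.

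Among the remaining members, Psmd5, Psmd9 and Psmd10 encode chaperones that help to assemble the base. Psmd10 was the highest, with 151.2 and 118.7 in the transgenic channels of arrays 1 and 2 and 135.2 and 127.6 in the control channels. Its sign differed between the arrays, at 0.029 ± 0.19. Psmd5 (0.012) and Psmd9 (-0.025) changed sign too. Psmc3ip is taken by its name alone: its product is a factor of meiotic recombination and no proteasome subunit. It had 127.4 and 109.1 in the transgenic channels and 137.1 and 123.9 in the control channels. It was lower on both arrays, at -0.14 ± 0.055.

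Several genes were read by more than 1 probe, which shows how far a gene's value depends on the probe. Of 13 members with several measured probes, 6 had probes on both sides of 0: Psmc6, Psmd2, Psmd7, Psmd9, Psmd12 and Psme4. The gap was widest in Psmd2, from -0.19 to 0.089. The probes of Psme2, Psmc4, Psmb3 and Psma4 kept their sign. Pseudogenes of Psma5, Psmb5, Psmb6 and Psmb7 are listed in RefSeq, and their transcripts could share probes with the parent gene.

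**Figure D4:**
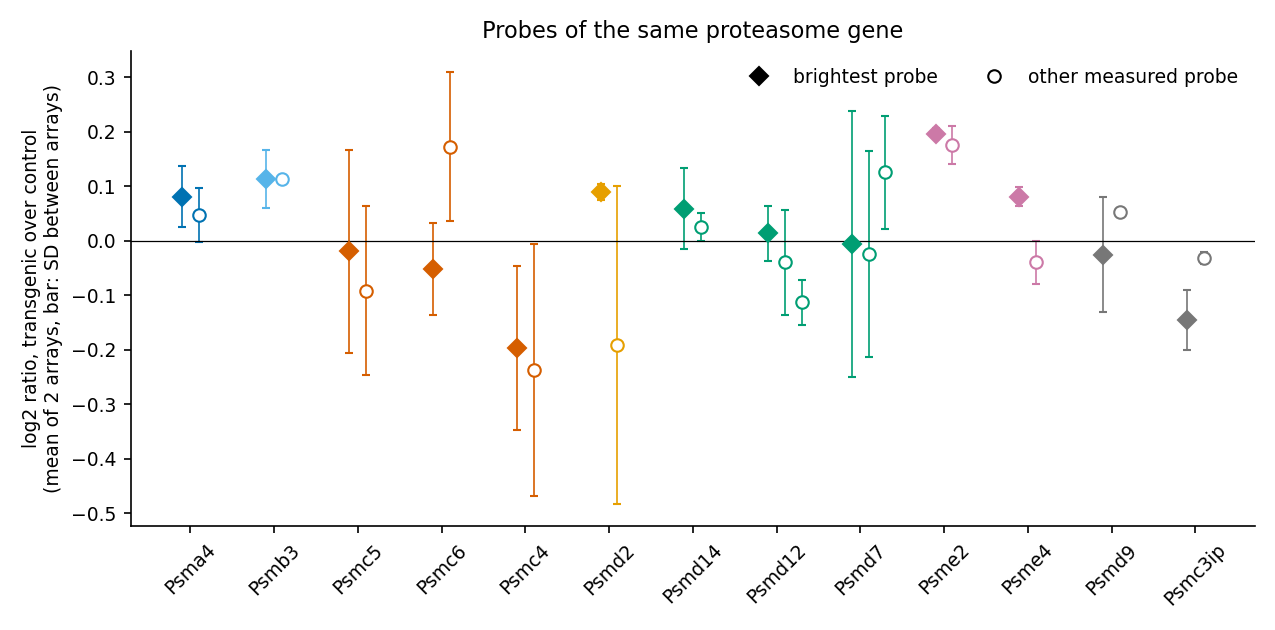
Log2 ratio of transgenic over control for each measured probe of the 13 proteasome genes with several, as the mean of both arrays with bars for the SD between arrays (n = 2); filled diamonds are the brightest probe and open circles the others. The Psme2 probes lie close together at 0.20 and 0.18, and the Psmd2 probes lie apart at 0.089 and -0.19.

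Assembly chaperones and further subunits outside the naming rule lay within the range of the members, where most measured genes also lay. Of 11 listed names, 6 genes were measured, with a median of -0.080. Among these 6, 0 reached 1.2-fold in either direction, against 5.58% of all measured genes. Sem1, a small lid subunit, was the highest at 0.14 ± 0.086, followed by Pomp, the maturation factor of the core, at 0.063 ± 0.095. Adrm1, a ubiquitin receptor of the base, was the lowest at -0.18 ± 0.0041, followed by the core chaperone gene Psmg2 at -0.091 ± 0.045. Of the genes that encode ubiquitin, Rps27a was at 0.27 ± 0.42 and Ubb at -0.074 ± 0.38, and both changed sign between the arrays. Of 7 measured ubiquitin receptors and segregase genes, 5 were below 0 on both arrays (71.4%, against 29.1% of all measured genes). Vcp and Ufd1, which pull tagged proteins out of complexes, were at 0.16 ± 0.11 each (a second Vcp probe read -0.040), and the shuttle receptor genes Ubqln1 and Rad23b at -0.26 ± 0.22 and -0.19 ± 0.087. The proteasome-bound deubiquitinase genes Usp14 (-0.011 ± 0.11) and Uchl5 (-0.13 ± 0.24) changed sign between the arrays.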

How the data were processed

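Thymus RNA of pooled animals was hybridised to 2 Agilent arrays, labelled from 500 ng of RNA per the labels' protocols. The authors deposited scanner files with mean and local background intensity per spot and channel, on a linear scale and uncorrected, and the headers name the software as Feature Extraction version 9.5.1.1. The deposited log10 ratio is, per the file headers, red over green processed signal. Values in the authors' deposited series table equal log10 of that ratio within 5e-10.

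Mean signals were corrected with median local background by normexp (offset 50) and normalised by loess within arrays, using limma 3.58.1 in R 4.3.3. Control spots had weight 0 in the loess, outlier spots (46 and 37) were left out, saturated spots were kept, and array 2 was turned for the dye swap. Before turning, the correlation between arrays over red/green was -0.271. Of 41174 probes, 12235 counted as measured, meaning that at least 1 genotype passed the software's well-above-background limit on both arrays. The brightest probe stood for a gene. Names were updated through RefSeq accessions (GRCm38.p6), symbols and synonyms, which left 8148 probes with the design's name. Probe positions are on mm8, and no annotation of that build was used. The offset shrinks the ratios of dim probes.

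Every member is named. Channel levels are given for Psmb5, Psmb6, Psmb7 and the highest and lowest member of each class. For other lists, the 2 highest and 2 lowest genes are named, except some that are not reported here. Members and lists were chosen with earlier results of these data known. The procedure was tested on simulated data. Alternatives covered background correction, normalisation, source of values, dim-probe filter, probe choice, each array alone, and a moderated test in limma that counts each array as its own replicate.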

Additional observations from a re-analysis of the deposited data

How the results depend on the processing

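The count of proteasome genes at least 1.2-fold higher was 0 under every setting run, and the count at least 1.2-fold lower was 0 except on array 1 alone. The share of all genes past 1.2-fold differed between settings. It ran from 0.649% (median centring) to 11.4% (software's log ratios) as higher, and from 0.819% to 10.4% as lower under the same settings. Leaving out 1 array gave 0 to 4 lower, the 4 being Psmc2, Psmc4, Psmd3 and Psmd13 on array 1, where 6.32% of all genes were that low. With limma's moderated test on the arrays as separate replicates, 0 members had an adjusted p under 0.05 in either direction, the smallest being 0.381 (Psme2). Of all 9397 measured genes, 93 were higher and 58 lower at that limit, so few calls would fall among 40 genes. At an unadjusted p under 0.05, 1 member was higher and 0 lower, against 637 and 531 of all measured genes. With median centring the median over the members was -0.046 and the core median -0.0098, as all genes moved to -0.035. Leaving out 1 array moved the ATPase median between -0.18 and -0.023, core minus ATPase between 0.11 and 0.20, and ATPase minus lid between -0.074 and -0.033. The medians of the core and lid and core minus lid ran from 0.017 to 0.089, -0.15 to 0.052 and 0.037 to 0.16, and the median over the members from -0.013 to 0.037. Core minus ATPase stayed between 0.085 and 0.11 in the settings that used both arrays. An offset of 0 and the software's log ratios put Psmd13 at -0.43 and -0.41, still with opposite signs on the arrays. The dim member Psmf1 was at -0.099 and -0.13 under those settings, so the size of dim members' ratios depends on the offset. With the mean over its probes Psmd2 was at -0.051.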

Other observations

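The enzymes that hand on ubiquitin leaned lower in the transgenic pool. Of 29 listed conjugating enzyme genes, 26 were measured, with a median of -0.075 (array 1 gave -0.061, array 2 gave -0.082). On both arrays 14 were below 0 (53.8%) and 2 above 0 (7.69%), against 29.1% and 28.3% of all measured genes. Of the 26, 0 reached 1.2-fold, against 5.58% of all measured genes. Ube2h was the lowest at -0.24 ± 0.21, with its other probe at 0.093, followed by Ube2g1 at -0.22 ± 0.011, whose second probe read -0.16. Ube2e3 was the highest at 0.12 ± 0.35, followed by Ube2e1 at 0.086 ± 0.27. The list also holds Ube2m (-0.13 ± 0.38), which transfers NEDD8 and is named here for that role, after its value was seen. The activating enzyme gene Uba1 was at -0.24 ± 0.25, below 0 on both arrays. Cell cycle genes had a median of -0.082 over 21 genes, and the immature thymocyte markers given above were lower too. Their part in these values was not tested. All of these genes were read in the same pair of pools.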
